A study of Mus musculus with 40 samples.

Results

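The genes of 8 mucosal antimicrobial defence proteins were followed through the cervix and the myometrium of pregnant mice: Ltf, Lcn2, Slpi, Wfdc2, Defb1, Bpifa1, Reg3g and Pigr. They were taken by name from a count table of 23079 genes, under a rule that sets no limit on their values. The table holds 40 total RNA libraries from C57BL/6 mice killed at term, at 18.5 days post coitum, after an intraperitoneal injection of human chorionic gonadotropin (hCG) or of phosphate-buffered saline (PBS). Each of the 4 groups, PBS cervix, hCG cervix, PBS myometrium and hCG myometrium, has 10 libraries. All groups share the strain and the gestational age, and neither the dose of hCG nor its timing is stated by the sources used here. The comparisons ask whether hCG changed these genes in either tissue, and how the tissues differ without it.

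The lining of the female tract holds back ascending bacteria with secreted proteins that starve them of iron, open their membranes, bind their walls or carry antibody to the surface. Lactoferrin (Ltf) binds free iron and is a classical estrogen-induced secretion of the mouse uterine epithelium; lipocalin 2 (Lcn2) captures the siderophores with which bacteria take up iron. Both are also stored in neutrophil granules. Slpi and Wfdc2 belong to the whey acidic protein (WAP) family, of which Slpi inhibits neutrophil elastase. Defb1 is a beta-defensin made by epithelia without a stimulus, Bpifa1 a lipid-binding airway secretion and Reg3g a lectin that binds bacterial peptidoglycan. Pigr, the polymeric immunoglobulin receptor, carries IgA and IgM across epithelial cells into the lumen.

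The bases upstream of 4 starts are shown because the results turn on these genes: Ltf, Wfdc2 and Lcn2 differed between the tissues, and Ltf and Pigr were low together in 1 cervix library. RefSeq promoter sequences (GRCm38.p6) were found for 7 of the 8 members, Defb1 having none. Each line gives the 250 bases before the annotated start, 5′ to 3′ on the gene's strand, with motif matches in capitals.
Ltf: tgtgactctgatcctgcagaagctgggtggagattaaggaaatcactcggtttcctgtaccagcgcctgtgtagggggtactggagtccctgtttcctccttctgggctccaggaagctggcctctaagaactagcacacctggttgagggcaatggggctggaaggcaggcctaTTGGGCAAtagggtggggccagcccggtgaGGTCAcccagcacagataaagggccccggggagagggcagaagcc
Wfdc2: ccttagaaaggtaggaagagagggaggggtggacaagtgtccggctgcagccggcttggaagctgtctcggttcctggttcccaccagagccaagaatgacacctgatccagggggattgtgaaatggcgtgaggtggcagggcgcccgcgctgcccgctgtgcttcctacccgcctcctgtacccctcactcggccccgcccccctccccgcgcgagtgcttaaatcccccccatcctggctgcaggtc
Lcn2: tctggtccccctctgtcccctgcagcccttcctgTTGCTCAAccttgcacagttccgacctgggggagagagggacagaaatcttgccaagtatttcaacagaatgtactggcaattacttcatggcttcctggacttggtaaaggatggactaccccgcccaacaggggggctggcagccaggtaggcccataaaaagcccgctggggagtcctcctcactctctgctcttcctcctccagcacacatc
Pigr: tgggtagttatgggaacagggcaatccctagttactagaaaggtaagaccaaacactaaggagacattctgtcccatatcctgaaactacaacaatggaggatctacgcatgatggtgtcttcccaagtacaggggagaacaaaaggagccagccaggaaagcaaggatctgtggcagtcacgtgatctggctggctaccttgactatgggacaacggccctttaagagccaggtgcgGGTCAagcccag
These windows are chr9:111019042-111019291 (plus strand) for Ltf, chr2:164562465-164562714 (plus strand) for Wfdc2, chr2:32387740-32387989 (minus strand) for Lcn2 and chr1:130826434-130826683 (plus strand) for Pigr. The capitals mark GGTCA, an arm of the estrogen receptor element, and the C/EBP motif TTGCNNAA, searched on both strands. GGTCA lies 45 to 41 bases before the Ltf start and 12 to 8 bases before the Pigr start; 35.2% of the 32851 promoters in the table hold it within 250 bases. For Wfdc2 a second annotated start lies 1 base further on, and the window before that start ends in GGTCA. The C/EBP motif lies at 75 to 68 bases before the Ltf start and 216 to 209 bases before the Lcn2 start, and 9.56% of promoters hold it; Slpi holds it 241 to 234 bases before its start. The palindromic element GGTCANNNTGACC (0.0639% of promoters), which contains GGTCA, and the STAT motif TTCNNNGAA (7.02%) had no match in these 7 members' windows. Imperfect forms, and bases more than 250 upstream, were not searched. The NF-kB motif (7.25%) was found before Reg3g, 123 to 114 bases from its start, where the same letters match on both strands. For Reg3g alone, the bases just after the annotated start were not found in a transcript of the gene. A match describes letters in a window, not binding.

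The libraries held 5449239 to 25028360 counts. Levels below are CPM, counts per gene relative to the library total, scaled by TMM factors over all 40 libraries. The labelled tissues carried their markers: Krt5, a basal squamous keratin, had a median of 3783 CPM in PBS cervix and 0.317 CPM in PBS myometrium, and Des, a muscle filament gene, 387 and 1655 CPM. Both also held epithelial RNA. The 10 simple epithelium markers, such as Krt8 and Epcam, summed to a median of 1557 CPM in PBS cervix and 1762 CPM in PBS myometrium. The myometrium libraries are titled uterus. The cervix libraries fall into 10 deeper and 10 shallower ones, the deeper being hCG 1 to 6 and PBS 1 to 4. PBS cervix libraries 5 to 8 are 4 of the 6 shallower PBS ones. They held 3.51 to 17.5% of their counts in Lars2, a mitochondrial tRNA synthetase gene, against at most 0.122% in the other 16 cervix libraries. In myometrium, PBS libraries 2 and 8 held 5.63 and 4.61% and hCG library 3 held 5.22%, against at most 0.713% in the others. In cervix this sign moves with treatment, and its part in the values of either tissue was not tested. The library labelled hCG cervix 5 stood apart. Its 5 urothelial markers summed to 2213 CPM against a median of 25.01 in its group, Myh11 was at 10187 CPM, and Krt13, a keratin of squamous epithelium, was at 1.47 CPM against a group median of 1422. The hCG cervix libraries 1 and 3 were the highest of their group in skeletal muscle markers (library 1, 5855 CPM summed) and in adipocyte markers (library 3, 1490 CPM summed). Urothelial markers summed to 591 CPM in hCG cervix library 3 and 174 CPM in hCG cervix library R3, against at most 64.6 CPM in PBS cervix. How much of library 5 was cervix was not tested; it stays under its label in the hCG cervix means, and values without it are given where it matters. In bulk tissue, fewer cells of a type and less RNA per cell cannot be told apart.

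Of the 8 members 6 could be tested, and Reg3g and Bpifa1 had too few counts. Between the tissues of PBS mice, 3 of the 6 changed, Ltf and Wfdc2 being higher in cervix and Lcn2 lower; 54.0% of the 14545 genes tested passed the same threshold (28.0% higher and 26.1% lower in cervix), so 3 of 6 is near the background. With hCG, 0 of 6 passed in cervix, where 8.91% of 14932 genes did, and 0 of 6 in myometrium, where 0.0138% of 14517 genes did. At an unadjusted p under 0.05, edgeR gave 0 of 6 in cervix, beside 4362 of all 14932 genes. In myometrium it gave 1 of 6, beside 2255 of all 14517 genes. DESeq2 called 0 members in cervix, beside 2281 of all 20352 genes in its fit. In myometrium it called 1, Defb1, beside 2.49% of the 16350 genes with an adjusted p. The difference of the hCG response between the tissues was called for 0 of 6 members by edgeR and by DESeq2. By edgeR 0.352% of 15624 genes were called, and by DESeq2 591 of all 20906 genes in its fit. An unadjusted p under 0.05 by edgeR was found for 0 of 6 members and 3120 of all 15624 genes. The median log2 fold change of the 6 members was 0.05 with hCG in cervix (all genes 0.01), 0.13 with hCG in myometrium (all genes 0.01) and 0.48 for cervix against myometrium (all genes 0.04).

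**Figure D1:**
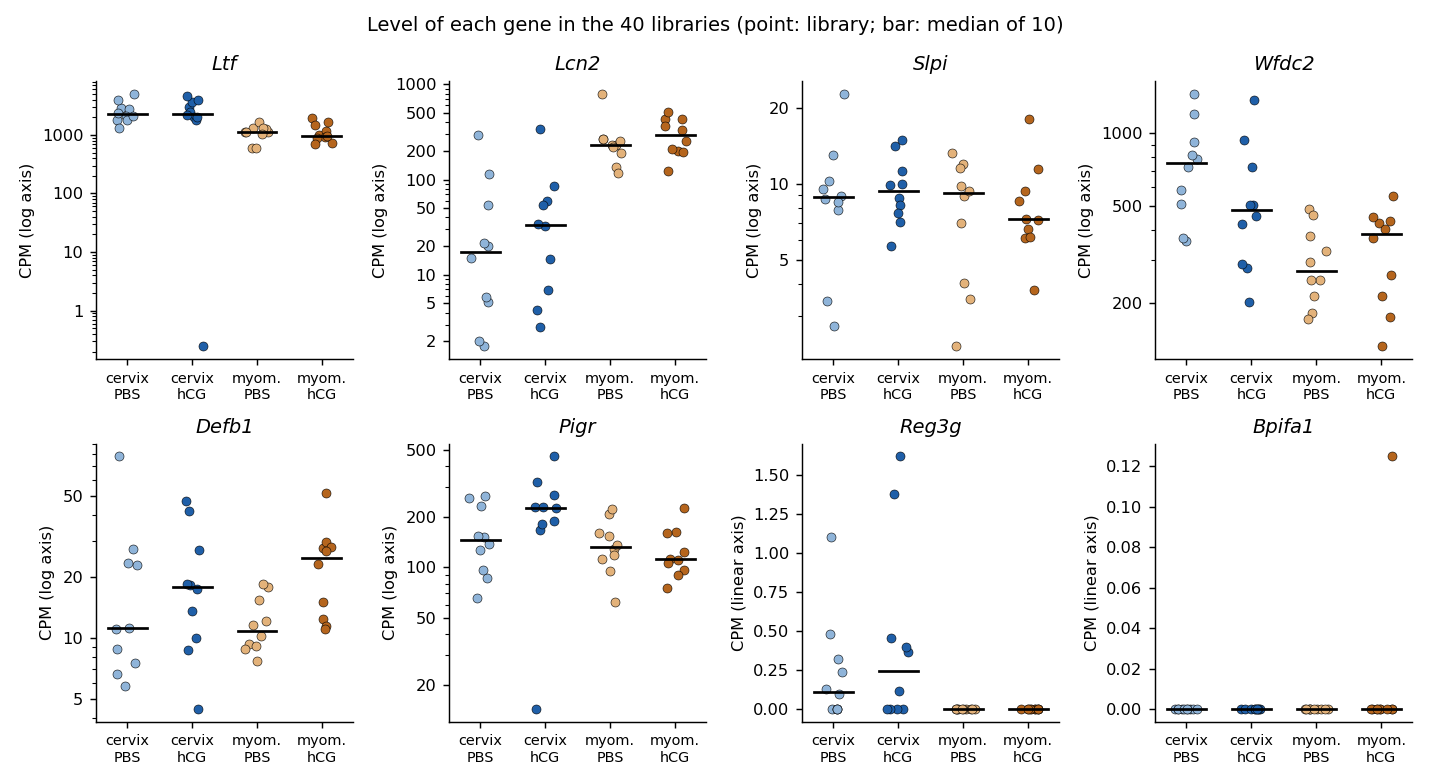
Level of each of the 8 genes in CPM, on a log axis for 6 genes and a linear axis for Reg3g and Bpifa1, by tissue and treatment; each point is a library and each bar the median of 10. Ltf was at 0.245 CPM in hCG cervix library 5 and at 1795 CPM or more in the other 9 libraries of that group, and Reg3g had no count in the 20 myometrium libraries.

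Per kilobase of exon, Ltf and Wfdc2 were the most abundant members in all 4 groups. In PBS cervix they stood at 756 ± 324 and 679 ± 309 CPM per kilobase (SD, n = 10), a difference within their spread. Pigr followed at 39.1 ± 17.8, Defb1 at 23.2 ± 25.01 and Lcn2 at 20.5 ± 35.2 CPM per kilobase, 3 levels whose spreads overlap. Slpi was the sixth at 8.12 ± 4.69 CPM per kilobase. In PBS myometrium the order was the same except for Lcn2, which stood in the third place at 103 ± 73.2 CPM per kilobase, ahead of Pigr at 34.7 ± 12.2. With hCG the top of the order was the same in each tissue, with Ltf at 744 ± 382 CPM per kilobase in cervix and 333 ± 123 in myometrium.

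Ltf, the iron-binding secretion, was 2.30-fold higher in the cervix than in the myometrium when mice had PBS, and did not pass the test with hCG. In PBS cervix the lowest, median and highest libraries had 1337, 2259 and 5057 CPM. In PBS myometrium they had 592, 1112 and 1654 CPM. All 10 cervix libraries lay above the myometrium median, and 1 of them, library 7, lay within the myometrium range. The log2 difference was 1.20 ± 0.22 (SE; edgeR adjusted p = 8.39e-05). Ltf averaged 2608 ± 1117 CPM (SD, n = 10) in PBS cervix and 2567 ± 1319 in hCG cervix, a log2 change of -0.01 ± 0.60 (SE; edgeR adjusted p = 0.996). In myometrium the means were 1115 ± 324 and 1147 ± 426 CPM, a log2 change of 0.05 ± 0.20 (SE; edgeR adjusted p = 0.946).

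The wide error of Ltf in hCG cervix comes with 1 library. Library 5 had 6 Ltf counts, 0.245 CPM, where the other 9 had 1795 to 4670 CPM with a median of 2437. Without it, the hCG mean was 2852 ± 1020 CPM (SD, 9 libraries) and the log2 change with hCG 0.16 (edgeR adjusted p = 0.715). Pigr was also lowest there, at 14.3 CPM against 168 to 459 CPM in the other 9. Slpi, at 8.82 CPM, lay inside the range of the other 9 (5.70 to 14.9 CPM). Wfdc2, at 202 CPM, lay below their range (279 to 1377 CPM), and Lcn2, at 2.82 CPM, below theirs (4.26 to 342 CPM). The 8 markers of uterine epithelium and glands summed to 5.55 CPM in library 5 against a group median of 206 CPM, with Foxa2, a gland transcription factor, at 0. Simple epithelium markers summed there to 1941 CPM, the highest of the group, but did not all move together. Krt8 and Krt18 were the highest of the group there, at 379 and 635 CPM. Epcam, of the same list, was the lowest, at 51.9 CPM against a group median of 244 CPM. The part of these tissue differences in the Ltf and Pigr values was not tested.

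Neutrophil granules hold Ltf and Lcn2 protein, so the granule genes Ngp, Camp and Mmp8 were read beside them. In PBS cervix their highest library values were 0.431, 0.381 and 0.968 CPM, and in PBS myometrium 0.305, 0.166 and 0.711 CPM. In the same groups the lowest library values of Ltf and Lcn2 were 1337 and 1.77 CPM in PBS cervix, and 592 and 118 CPM in PBS myometrium. The part of neutrophils in the Ltf and Lcn2 levels was not tested. The hCG cervix library 1 had the highest values, 29.5 CPM of Ngp and 9.51 CPM of Camp, beside 2945 CPM of Ltf and 32.4 CPM of Lcn2. Summed over the 11 neutrophil markers found, the median was 17.2 CPM in PBS cervix (range 11.2 to 26.1) and 64.2 CPM in hCG cervix (range 14.8 to 275). In myometrium it was 22.6 CPM with PBS (range 13.6 to 143) and 23.9 CPM with hCG (range 12.8 to 118).

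Lcn2, the siderophore trap, was the member that was lower in cervix. In PBS cervix its lowest, median and highest libraries had 1.77, 17.4 and 297 CPM, and in PBS myometrium 118, 232 and 798 CPM. The ranges met in a single cervix library, R3, which lay above the myometrium median; the other 9 lay below the lowest myometrium value. The log2 difference, cervix minus myometrium, was -2.33 ± 0.75 (SE; edgeR adjusted p = 0.0120), 5.04-fold lower in cervix. Without each library in turn it ran from -3.34 to -1.99, with edgeR adjusted p from 2.75e-04 to 0.0277.

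From the lowest to the highest PBS cervix library Lcn2 differed 168-fold, against 13.5-fold for Defb1 and 3.78-fold for Ltf. With hCG the lowest, median and highest cervix libraries had 2.82, 33.4 and 342 CPM, and the log2 change was 0.27 ± 0.90 (SE; edgeR adjusted p = 0.869). The high cervix libraries, R3 with PBS and 3 with hCG, were also the highest of their groups for macrophage markers (610 and 1161 CPM summed), plasma cell markers (39.8 and 116 CPM) and adipocyte markers (175 and 1490 CPM). Some other libraries did not follow. PBS library 6, next in Lcn2 at 115 CPM, had the lowest macrophage sum of its group, 152 CPM. Library 4 with hCG, next at 85.2 CPM, had the lowest plasma cell sum, 3.45 CPM. Library 5 with hCG, lowest in Lcn2, had 984 CPM of macrophage markers, behind only library 3. The part of these cells in the Lcn2 level was not tested. Leaving out hCG library 3 turned the log2 change to -0.71 (edgeR adjusted p = 0.634). In myometrium Lcn2 had 271 ± 192 CPM with PBS and 305 ± 127 CPM with hCG (SD, n = 10), a log2 change of 0.19 ± 0.31 (SE; edgeR adjusted p = 0.834).

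**Figure D2:**
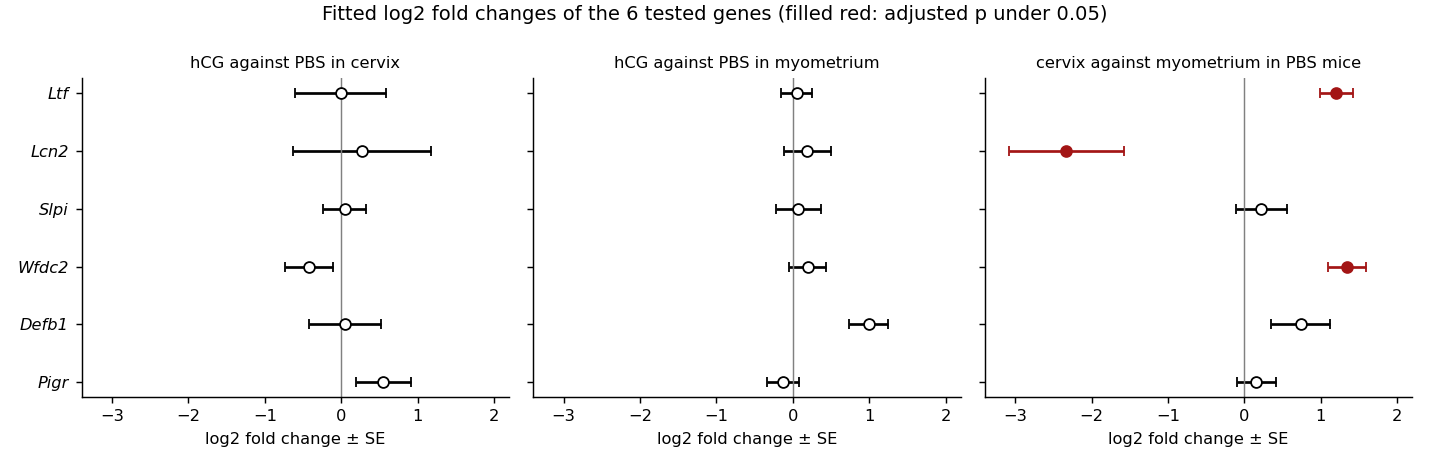
Fitted log2 fold changes with standard errors of the 6 tested genes in 3 comparisons; filled red points have an edgeR adjusted p under 0.05. For cervix against myometrium Ltf was at 1.20, Wfdc2 at 1.34 and Lcn2 at -2.33; in the hCG comparisons no point is filled.

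Wfdc2, a WAP protein of reproductive tract epithelium, was 2.53-fold higher in the cervix than in the myometrium with PBS. Its lowest, median and highest libraries had 361, 757 and 1460 CPM in PBS cervix and 171, 271 and 485 CPM in PBS myometrium. All 10 cervix libraries lay above the myometrium median, and the 2 lowest lay inside the myometrium range. The log2 difference was 1.34 ± 0.25 (SE; edgeR adjusted p = 8.93e-05). With hCG the cervix libraries had 202, 482 and 1377 CPM (lowest, median, highest), and 8 of 10 lay below the PBS median. That change, -0.42 ± 0.32 on the log2 scale (SE), did not pass the test (edgeR adjusted p = 0.393). Without PBS libraries 5 to 8, those rich in Lars2, it was -0.76 (edgeR adjusted p = 0.170). Without hCG libraries 1, 3 and 5 it was -0.14 (edgeR adjusted p = 0.843), and without hCG library 5 alone -0.31 (edgeR adjusted p = 0.535). In myometrium Wfdc2 had 301 ± 110 CPM with PBS and 342 ± 138 CPM with hCG, a log2 change of 0.19 ± 0.24 (SE; edgeR adjusted p = 0.776).

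Within the depth classes of the cervix libraries, the log2 change of Wfdc2 with hCG had opposite signs. The 4 deeper PBS libraries had 788, 813, 923 and 1460 CPM and the 6 deeper hCG libraries 202 to 508 CPM. Library 5 was the lowest of these hCG libraries, at 202 CPM, and libraries 1 and 3 are also among them. The log2 change in the deeper libraries was -1.31 (edgeR adjusted p = 0.0508), in a fit that called 1.53% of 15767 genes. The 6 shallower PBS libraries had 361 to 1202 CPM and the 4 shallower hCG libraries 290, 728, 936 and 1377 CPM, a log2 change of 0.41 (edgeR adjusted p = 0.855); of these PBS libraries 4 are the ones rich in Lars2, at 361 to 584 CPM of Wfdc2. Lcn2 had the opposite signs, with a log2 change of 3.68 where depth was high (edgeR adjusted p = 0.108) and -1.77 where it was low (edgeR adjusted p = 0.799). The difference of the hCG effect between the classes was -1.70 ± 0.54 (SE) for Wfdc2 and 5.46 ± 1.76 for Lcn2 on the log2 scale. Neither passed (edgeR adjusted p = 0.676 for both, unadjusted 0.00483 and 0.00580); that interaction called 0.00% of 14932 genes.

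**Figure D3:**
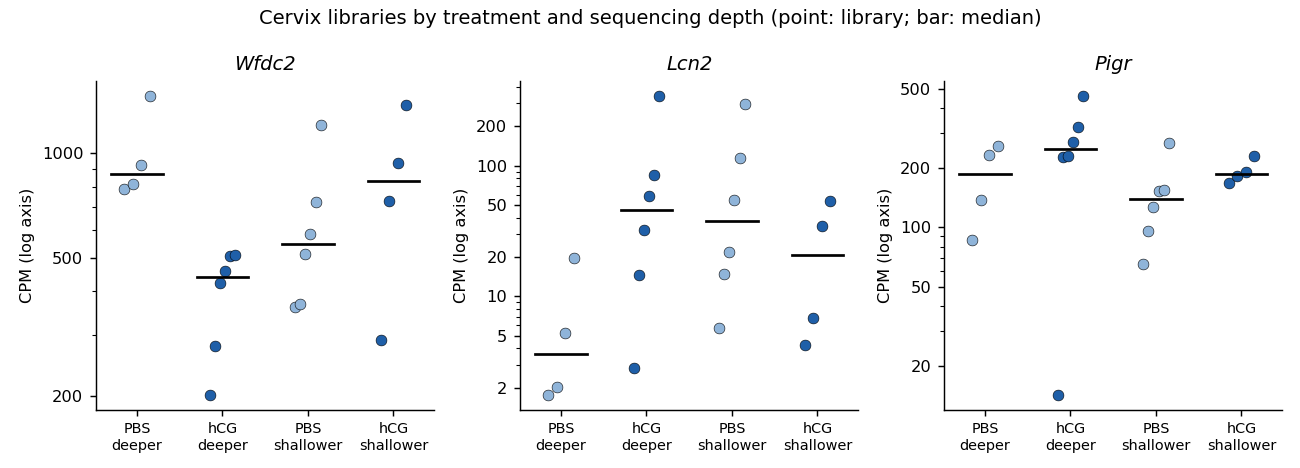
Wfdc2, Lcn2 and Pigr in the cervix libraries in CPM on a log axis, by treatment and depth class; each point is a library and each bar a median. Wfdc2 ran from 788 to 1460 CPM with PBS and from 202 to 508 CPM with hCG in the deeper libraries. In the shallower ones it ran from 361 to 1202 CPM with PBS and from 290 to 1377 CPM with hCG.

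Slpi, the elastase inhibitor, was low in every group. The group means were 9.58 ± 5.54 CPM in PBS cervix, 9.76 ± 2.96 in hCG cervix, 8.18 ± 3.82 in PBS myometrium and 8.45 ± 3.94 in hCG myometrium (SD, n = 10 each). All 4 groups overlapped widely. The log2 change with hCG was 0.04 ± 0.28 in cervix (SE; edgeR adjusted p = 0.936) and 0.07 ± 0.29 in myometrium (SE; edgeR adjusted p = 0.949), and the tissue difference 0.22 ± 0.33 (SE; edgeR adjusted p = 0.591).

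Slpi and Wfdc2 lie on the same stretch of chromosome 2, at 164354070 to 164356507 and 164562715 to 164568510 (GRCm38.p6), 206207 bases apart. RefSeq lists 9 genes between them, 6 of which are in the table. Sdc4, Sys1, Dbndd2 and Pigt reached a mean of 1 CPM in a group; Sdc4, a cell surface proteoglycan, had 269 CPM in PBS cervix and 249 CPM in PBS myometrium. Dbndd2 had 26.4 CPM in PBS cervix and 61.8 CPM in PBS myometrium, the opposite order to Wfdc2.

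Defb1, the constitutive beta-defensin, had the smallest p of the members with hCG, in myometrium, and missed the threshold. The PBS libraries had 7.72, 10.8 and 18.3 CPM (lowest, median, highest) and the hCG libraries 11.003, 24.8 and 51.5 CPM. All 10 hCG libraries lay above the PBS median, though 4 of them, at 11.003 to 14.98 CPM, lay within the PBS range. The means were 12.01 ± 3.83 and 23.6 ± 12.3 CPM (SD, n = 10). The log2 change was 0.99 ± 0.26 (SE), 1.99-fold, with an unadjusted p of 8.05e-04 and an edgeR adjusted p of 0.0975. DESeq2 gave an adjusted p of 0.0162, in a fit that called 2.49% of 16350 genes.

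The myometrium libraries also differed in yolk sac RNA, whose 8 markers summed to a median of 579 CPM with PBS and 3393 CPM with hCG. In the 12 libraries with at most 1000 CPM of these markers the Defb1 change was 0.75 on the log2 scale (edgeR adjusted p = 0.673). With the simple epithelium marker score as a covariate it was 1.08 (edgeR adjusted p = 0.0434). In cervix Defb1 had 20.3 ± 21.8 CPM with PBS and 20.7 ± 14.1 CPM with hCG, a log2 change of 0.05 ± 0.47 (SE; edgeR adjusted p = 0.958). The response in cervix minus that in myometrium was -0.96 ± 0.55 (SE; edgeR adjusted p = 0.326), and the tissue difference in PBS mice 0.74 ± 0.38 (SE; edgeR adjusted p = 0.110).

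Pigr, the antibody carrier, did not pass the test between the tissues, with 157 ± 71.8 CPM in PBS cervix and 139.8 ± 49.0 CPM in PBS myometrium (SD, n = 10; log2 difference 0.16 ± 0.25, SE; edgeR adjusted p = 0.617). With hCG the cervix libraries had 14.3, 227 and 459 CPM (lowest, median, highest) against 65.4, 145 and 266 CPM with PBS. Of the 10 hCG libraries 9 lay above the PBS median, the exception being library 5. The log2 change was 0.55 ± 0.36 (SE; edgeR adjusted p = 0.322). Without library 5 it was 0.70 (edgeR adjusted p = 0.0909), the lowest adjusted p over the fits that leave out 1 cervix library. Without PBS libraries 5 to 8 it was 0.33 (edgeR adjusted p = 0.637). In myometrium the log2 change was -0.13 ± 0.21 (SE; edgeR adjusted p = 0.835). Jchain, the joining chain of the polymeric antibodies that Pigr carries, had a median of 8.47 CPM in PBS cervix and 47.4 CPM in PBS myometrium.

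Reg3g, the peptidoglycan-binding lectin, was found only as traces in cervix. It had 40 counts in all in PBS cervix, in 6 of 10 libraries with at most 1.11 CPM, and 87 counts in hCG cervix, in 6 of 10 libraries with at most 1.62 CPM. The 20 myometrium libraries had 0 counts, which allows up to 0.0234 CPM over the PBS group and 0.0215 CPM over the hCG group. Without a filter on low counts, the tissue difference in PBS mice had an edgeR adjusted p of 0.00302 and a DESeq2 adjusted p of 0.0104. The hCG change in cervix had an adjusted p of 0.559 with edgeR and 0.602 with DESeq2. Bpifa1, the airway secretion, had 2 counts in hCG myometrium library 5 and none in the other 39 libraries.

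Across libraries of a tissue, after centring on the group means, the 6 members were mostly positively correlated. Of 15 pairs in each tissue, 12 in cervix and 15 in myometrium had a positive Spearman's rho. None passed the Benjamini-Hochberg threshold of 0.05 by rho in either tissue; 2 cervix pairs passed by Pearson's r. For Ltf and Pigr in cervix, r was 0.881 (permutation adjusted p = 0.0042) and rho 0.573 (permutation adjusted p = 0.0829). Without the 2 libraries farthest from the Ltf median, r was 0.607, and without library 5 it was 0.505 (permutation adjusted p = 0.0834). Within the depth classes rho was 0.806 for the 10 deeper ones and -0.224 for the others, so this relation did not hold within both.

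For Slpi and Wfdc2 in cervix, r was 0.599 (permutation adjusted p = 0.0369) and rho 0.541 (permutation adjusted p = 0.0829); r was 0.458 without the 2 libraries farthest from the Slpi median. Without library 5, r was 0.645 (permutation adjusted p = 0.0147). Their rho was 0.200 among the 10 deeper and 0.794 among the 10 shallower libraries. Leaving out library 5 also brought Ltf with Slpi from r 0.146 to 0.643 (permutation adjusted p = 0.0147) and Ltf with Defb1 from r 0.322 to 0.661 (permutation adjusted p = 0.0147). Then 3 pairs passed by r and 0 by rho, and 9 of 15 had a positive rho.

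**Figure D4:**
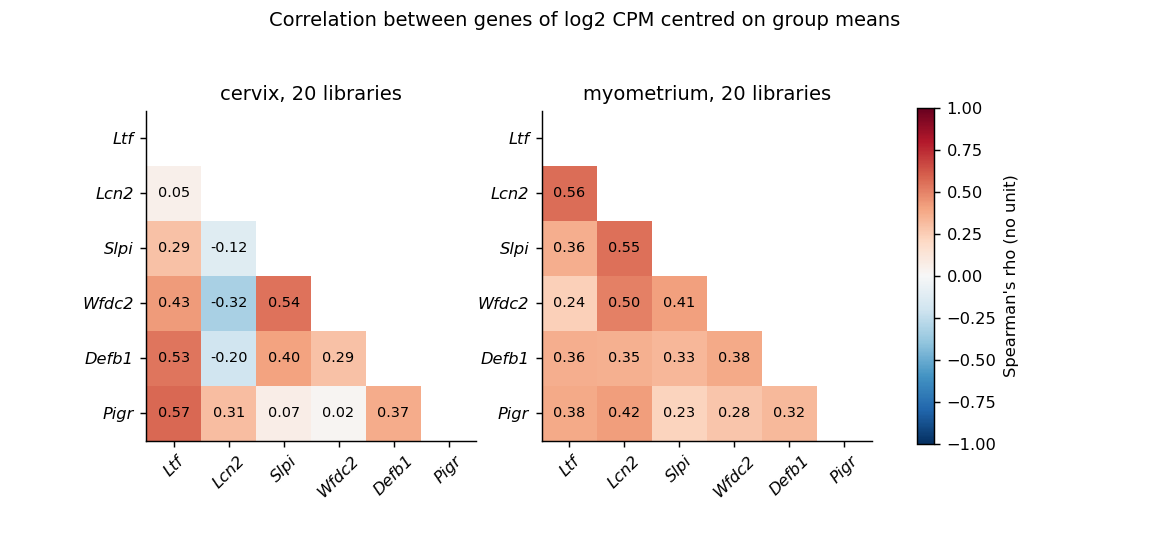
Spearman's rho between the 6 tested genes over 20 libraries of each tissue, from log2 CPM centred on the group means; colour runs from -1 (blue) to 1 (red). All 15 pairs were positive in myometrium, and in cervix 12 were, the negative ones being Lcn2 with Slpi, Wfdc2 and Defb1.

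Against marker scores of cell types, 24 relations were computed per tissue. Wfdc2 followed the simple epithelium score, the mean of 10 genes such as Krt8 and Epcam. In cervix r was 0.837 (permutation adjusted p = 9.60e-04) and rho 0.786 (permutation adjusted p = 0.00168), with r at 0.775 without the 2 farthest libraries. In myometrium r was 0.746 (permutation adjusted p = 0.00336) and rho 0.577 (permutation adjusted p = 0.101). With that score as a covariate the Wfdc2 change with hCG in cervix was 0.07 on the log2 scale (edgeR adjusted p = 0.886). Ltf and Pigr in cervix had r of 0.901 and 0.843 with the score of uterine epithelium and glands (permutation adjusted p = 0.0155 for each), and 0.548 and 0.388 without the 2 farthest libraries. Their rho there was 0.582 and 0.535 (permutation adjusted p = 0.0972 for each). Ltf in cervix also passed by r with the squamous epithelium score, at 0.621 (permutation adjusted p = 0.0155), and r was 0.350 without the 2 farthest libraries. Its rho with that score was 0.540 (permutation adjusted p = 0.0972). Wfdc2 with the simple epithelium score in cervix was the 1 relation that passed by rho.

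The genes most alike to each member over the 20 cervix libraries were sought among the 14155 other named genes tested. For Ltf these were Serpinb11 (rho 0.838), Kcnj16 (0.830) and Slc34a2 (0.802), and for Lcn2 Trpv6 (0.880), Csf1 (0.856) and Mmp7 (0.839). Wfdc2 was closest to Rab8a (0.950), Trp53rka (0.940) and Crb3 (0.926). Slpi was closest to Bscl2 (0.827), Npc2 (0.806) and Ifi27 (0.805). Defb1 was closest to Rptn (0.895), Cyp2a4 (0.893) and Cyp2a5 (0.865), the last pair being near copies whose counts may be shared. Pigr was closest to Oas2 (0.770), Cxcl10 (0.716) and Slc5a9 (0.710). These values are descriptions over libraries that share depth classes and tissue makeup.

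Of 61 other genes of mucosal defence listed, 24 were tested between the tissues of PBS mice, with 7 higher and 11 lower in cervix, beside 28.0% and 26.1% of all genes tested. Pglyrp1, a peptidoglycan recognition protein, had 92.4 ± 26.0 CPM in cervix and 4.64 CPM on average in myometrium, 4.32 higher on the log2 scale (edgeR adjusted p = 1.84e-12). S100a14, a calcium-binding protein of epithelia, was 468-fold higher (edgeR adjusted p = 4.99e-12) and Wfdc18, a WAP gene, 44.7-fold (edgeR adjusted p = 2.16e-10). Pglyrp4 had 18.6 CPM in cervix and no count in PBS myometrium. The lysozymes, which cut bacterial walls, were lower in cervix: Lyz2 3.95-fold (edgeR adjusted p = 7.56e-07) and Lyz1 3.51-fold (edgeR adjusted p = 1.38e-06), near copies that can share reads. Beside them, 8 of 8 macrophage markers, Lyz2 among them, were lower in cervix.

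With hCG in cervix, 3 of 27 genes of that list rose and 0 fell, a share near the 8.91% called of all genes. S100a9 and S100a8, the subunits of the metal-binding protein calprotectin of neutrophils, rose by 4.17 (edgeR adjusted p = 0.0272) and 3.79 on the log2 scale (edgeR adjusted p = 0.0275), both also being neutrophil markers, of which 4 of 6 tested rose. Cxcl14, an epithelial chemokine, rose 2.23-fold (edgeR adjusted p = 0.0303). These 3 calls, and those of Cebpd, Grhl3 and Trf below, were lost without hCG libraries 1, 3 and 5 (edgeR adjusted p = 0.0789 to 0.949), without PBS libraries 5 to 8 (0.0811 to 0.162), and without any 1 of hCG library 3 and PBS libraries 4, 7 and 8. In myometrium 0 of 22 were called by edgeR (5 at an unadjusted p under 0.05, beside 2255 of all 14517 genes). DESeq2, with 53 genes of the list in its fit, called 0.

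Of 28 regulators and receptors, 22 were tested in cervix with hCG. Cebpd, a transcription factor of the acute phase, rose 1.68-fold (edgeR adjusted p = 0.0332), and Grhl3, a factor of squamous barrier formation, fell 2.42-fold (edgeR adjusted p = 0.0333), beside a fall of 3 of 13 squamous markers; 2 of 22 called is close to the 8.91% of all genes. Leaving out 1 library took the edgeR adjusted p up to 0.0687 for Cebpd and 0.0746 for Grhl3. Between tissues, 10 of 22 were higher and 4 lower in cervix, beside 28.0% and 26.1% of all genes. Ehf, an epithelial ETS factor, was 8.20-fold higher (edgeR adjusted p = 5.83e-12) and Nfkb1, an NF-kB subunit, 1.69-fold (edgeR adjusted p = 3.51e-07). Grhl3, at 103 CPM, and Spdef, a secretory cell factor at 109 CPM, were near or at 0 in PBS myometrium. In myometrium with hCG 0 of 20 were called by edgeR (4 at an unadjusted p under 0.05, beside 2255 of all 14517 genes). DESeq2, with 24 genes of the list in its fit, called 1, beside 2.49% of 16350 genes.

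Of 18 partners and targets of the members, such as iron carriers, proteases and receptors, 14 were tested in each tissue. Trf, the transferrin that carries iron in blood, rose 3.83-fold with hCG in cervix (edgeR adjusted p = 0.0443), from 72.8 CPM to 271 ± 376 CPM (SD, n = 10), with 7 of 10 hCG libraries above the PBS median and a range of 30.8 to 1222 CPM. The call was lost in 14 of the 20 fits without 1 library (edgeR adjusted p up to 0.09995), and without hCG libraries 1, 3 and 5 the log2 change was 0.05 (edgeR adjusted p = 0.949). Adipocyte markers summed to 979 and 1490 CPM in hCG libraries 1 and 3 against a group median of 189 CPM; their part was not tested. Between tissues, 1 was higher and 9 lower in cervix, beside 28.0% and 26.1% of all genes. Plscr1, a scramblase, was 2.66-fold higher (edgeR adjusted p = 5.65e-06). Slc40a1, the iron exporter ferroportin, was 3.33-fold lower (edgeR adjusted p = 3.34e-07), Grn, the progranulin that Slpi protects from elastase, 2.80-fold lower (edgeR adjusted p = 2.76e-06) and Tmprss2, a membrane protease, 2.11-fold lower (edgeR adjusted p = 1.69e-06). In myometrium with hCG 0 of 14 were called by edgeR (1 at an unadjusted p under 0.05, beside 2255 of all 14517 genes). DESeq2, with 17 genes of the list in its fit, called 0.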

How the data were processed

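The deposited values are whole-number counts per gene with mouse Entrez gene identifiers, in 1 table for the 40 libraries. Per the labels' protocols, libraries were made with the TruSeq Stranded Total RNA kit; TopHat2 and the builds GRCm38 and mm10 are named in the submitters' processing notes, with counting tool, strand setting and annotation not given in the sources used here. Identifiers were matched to RefSeq (GRCm38.p6) for 23008 of 23079; the 71 unmatched held 0.197% of counts. Members and gene lists were chosen with earlier results of these data known. Groups were compared with edgeR 4.0.16 (R 4.3.3, TMM factors, filterByExpr, robust quasi-likelihood F-test) and Benjamini-Hochberg adjustment over all genes tested, at 0.05; the code was tested on simulated data. The standard error is the absolute log2 fold change over the square root of F. DESeq2 1.42.0 and other filters, scalings, covariates and subsets were alternatives. Correlations used log2 CPM (prior count 2) and two-sided permutation tests with 100000 resamples. Marker score relations, the depth interaction and the fits of the interaction and of the correlations without hCG cervix library 5 were added after seeing the data. Named genes were the 8 members, up to 6 other defence genes and up to 4 regulators and partners each with the smallest p past the threshold per comparison, and the 3 genes most like each member; other markers and neighbours serve as context. Limits from 0 counts use 3 counts over a group and cover counting error only. Nothing in the labels says that equal library numbers share a mouse, so numbers were not taken as pairs. In 4 pairs of groups, deviations of same-numbered libraries correlated with lowest r -0.287 to -0.0769 and highest 0.273 to 0.610. Between the tissues the median r was 0.125 with PBS (5 of 9 above 0.1) and 0.0463 with hCG (3 of 9 above 0.1). Between PBS and hCG, given to different mice, it was 0.104 in cervix and -0.0863 in myometrium. These values cannot decide whether equal numbers share a mouse. P-values measure the spread between these samples.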

Additional observations from a re-analysis of the deposited data

Results flagged for a closer look

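A library was singled out where its gap to the nearest other library of its group of 10 exceeded Dixon's critical value of 0.466 of the range, which chance gives in about 1 in 20 groups of normally distributed values. Of 54 series of 10 values tested, in CPM and in log2 CPM, 12 were singled out, and CPM values are skewed. In hCG cervix, library 5 was the lowest for Ltf, at -1.37 log2 CPM with the next at 10.81, and for Pigr, at 3.85 log2 CPM with the next at 7.39. Lcn2 had a high library in 3 groups: PBS cervix library R3 at 297 CPM (next 115), hCG cervix library 3 at 342 CPM (next 85.2) and PBS myometrium library 8 at 798 CPM or 9.64 log2 CPM (next 268 CPM). That myometrium library was also the highest of its group for markers of uterine epithelium and glands, at 345 CPM summed. It held 4.61% of its counts in Lars2. The part of either sign was not tested. Slpi was high in PBS cervix library 4 at 22.8 CPM (next 13.0). Defb1 was high in PBS cervix library 2 at 78.2 CPM (next 27.3) and in hCG myometrium library 3 at 51.5 CPM (next 29.7). The latter library held 5.22% of its counts in Lars2, whose part was not tested. Reg3g was high in PBS cervix library 2 at 1.11 CPM (next 0.484). Bpifa1 in hCG myometrium library 5, with 2 counts, was at 0.125 CPM or -1.90 log2 CPM, the other 9 having no count.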

How the results depend on the processing

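The 3 members called between the tissues (Ltf, Wfdc2, Lcn2) were called in the same direction under all 8 other settings and without each library in turn. Besides Reg3g, tested only without the filter or by DESeq2, the other calls on single members were for Defb1 with hCG in myometrium, by DESeq2 (log2 0.99) and with the simple epithelium covariate (log2 1.08), which makes 1 member called in each. The cause of the changes below was not tested.

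Genes called with hCG in cervix (1331) became 2281 with DESeq2, 3424 with all 40 libraries in 1 fit, 242 with only deeper and 0 with only shallower libraries (776 at an unadjusted p under 0.05), 508 with depth class as a term, 0 without hCG libraries 1, 3 and 5 (2833 unadjusted), 1 without PBS libraries 5 to 8 (left out for their high Lars2 share), and 0, 0 and 690 with the squamous, simple epithelium and neutrophil scores (954 and 2247 unadjusted for the first pair). Leaving out 1 library gave 1 to 2065, PBS libraries 4, 7, 8, 10 and 2 giving 1, 1, 2, 381 and 878, and hCG libraries 3, 5, 7, 2, R3, 9 and 10 giving 8, 406, 542, 841, 869, 2005 and 2065 when left out. In myometrium the 2 genes became 407 with DESeq2, 4 with all 40 libraries, 0 without libraries rich in yolk sac RNA (1089 unadjusted), 82 with the simple epithelium score and 1 to 137 without 1 library, 137 being without PBS 2, 90 without PBS 3 and 31 without PBS R3. The interaction count (55) became 591 with DESeq2, 24 without a filter and 32 without hCG cervix library 5. Between tissues it stayed at 7512 to 8235 without 1 library. Correlated cervix pairs by rho went from 0 to 4 without hCG libraries 1, 3 and 5.

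With the library number as a replicate block, 1172 genes were called with hCG in cervix, 2 in myometrium, 8147 between tissues and 0 for the interaction (3497 unadjusted), and no call on a member changed. Of the same-numbered libraries, 0 of 9 (cervix, PBS with hCG), 0 of 8 (myometrium, PBS with hCG), 3 of 9 (PBS, cervix with myometrium) and 2 of 9 (hCG, cervix with myometrium) correlated best with their own number.

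Uncalled changes of members near 0 changed sign. With hCG in cervix, Ltf became 0.069 with upper-quartile factors, 0.19 in the shallower libraries, 0.20 without hCG 1, 3 and 5, 0.85 with the squamous and 0.25 with the simple epithelium score. Lcn2 became -1.77 in the shallower libraries, -0.55 without hCG 1, 3 and 5, -1.19 with the squamous and -1.52 with the neutrophil score. Slpi became -0.39 in the deeper libraries, -0.086 without hCG 1, 3 and 5, -0.30 without PBS 5 to 8 and -0.12 with the neutrophil score. Wfdc2 became 0.41 in the shallower libraries and 0.26 and 0.072 with the squamous and simple epithelium scores. Defb1 became -0.41 in the deeper libraries, -0.048 with depth class as a term, -0.087 without hCG 1, 3 and 5, -0.30 without PBS 5 to 8, -0.047 with the simple epithelium and -0.68 with the neutrophil score. In myometrium Ltf became -0.033 without libraries rich in yolk sac RNA, and in the interaction with upper-quartile factors Ltf became 0.024 and Slpi 0.051. Leaving out 1 library gave, with hCG in cervix, Ltf -0.12 to 0.16, Lcn2 -0.71 to 1.26, Slpi -0.064 to 0.29 and Defb1 -0.17 to 0.60; in myometrium, Ltf -0.066 to 0.13 and Slpi -0.12 to 0.17; between tissues, Slpi -0.0068 to 0.33 and, for the interaction without hCG cervix library 5, Ltf 0.083. Depth limits Bpifa1, with 2 counts in all.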
